A study of Mus musculus with 661 samples.

Results

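Integrins are the receptors through which stromal and endothelial cells of the bone marrow hold their matrix, and laminins are the basement membrane proteins that many of these receptors bind. All genes whose symbols name an integrin alpha subunit, an integrin beta subunit or a laminin chain were taken by name, without use of their values, which gave 37 of 45771 nuclear genes. They comprise 18 alpha subunits, 8 beta subunits and 11 laminin chains. Each integrin joins an alpha to a beta subunit, and the alpha subunit largely sets whether collagen, laminin, fibronectin or a cell-surface partner is bound. Each laminin is a trimer of an alpha, a beta and a gamma chain, in which the alpha chain carries the main receptor-binding domains. In the marrow, arterioles and sinusoids are wrapped in laminins of different composition, and blood stem cells rest against them.

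The study asked how the stromal and endothelial cells of the bone marrow change with age, and sequenced RNA of 661 single cells from C57BL/6 wild-type mice of both sexes, young (about 2 months) or old (mostly about 24 months). Cells released with type I collagenase were sorted as negative for Ter119 and CD45. From the endosteum, the inner bone surface, came Sca-1-positive mesenchymal stromal cells (MSC-S), osteoprogenitors negative for PDGFRα and LepR (OPr), multipotent osteoprogenitors positive for PDGFRα and negative for LepR (mOPr), and arterial endothelial cells (AEC, CD31-positive, high Sca-1, low CD105). From the central marrow came LepR-positive mesenchymal stromal cells (MSC-L) and sinusoidal endothelial cells (SEC, CD31-positive, low Sca-1, high CD105). The 4 mesenchymal gates required CD51, the protein of Itgav, so Itgav was part of how those cells were chosen. The labels do not name the mouse of a cell, so each age of each population counts as 1 sample and no test between ages or populations was possible.

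MSC-L were represented by 53 young cells with 22806005 counts and 58 old cells with 19497186 counts. MSC-S gave 59 young cells with 34555025 counts and 59 old cells with 39179615. OPr gave 44 young cells with 29331964 counts and 29 old cells with 21379137, and mOPr 26 with 14586529 and 26 with 12485462. AEC gave 84 young cells with 34857422 counts and 82 old cells with 34874186, and SEC 70 with 21928347 and 71 with 20725190. The median cell held 416359 nuclear counts and the lowest 57517. Library numbers in the labels form 3 ranges: all SEC lie in the third, all mesenchymal sorts in the first and second, and AEC in all 3. Levels are CPM, the summed counts of a group scaled to a common nuclear total, ranges in brackets are 95% intervals that cover counting error alone, and a gene is called detected in a cell at 10 CPM or more. The ratios are log2 with 1 CPM added, and a member is called higher or lower when they reach 2-fold and it has 100 counts in at least 5 cells. The clusters of a sort, used beside age ratios, are the clusters of the authors that match it (for mOPr, those of OPr and MSC-S), without cells of another lineage. Sets of all cells of these clusters from any sort keep such cells. Itga1 and Itga6 were guide genes of the mesenchymal clustering and Itga7, Itga8, Itgb4 and Lama3 of the endothelial, so for them ratios within such clusters are in part set by it. The subset in the clusters of a sort and the one without platelet-marker cells were chosen after seeing the data.

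Marker genes follow the sorts, with exceptions that touch several members. The 8 markers of MSC-L all reached 10 CPM in MSC-L, with a summed level of 66878 CPM in young and 52866 in old, led by Cxcl12. The 8 markers of MSC-S summed to 24895 CPM in young and 23519.5 in old MSC-S, led by Gsn. All 15 endothelial markers reached 10 CPM in both endothelial sorts, and the largest of their sums in a mesenchymal sort was 123 CPM. Sinusoidal markers summed to 23671 CPM in young SEC and 3964 in young AEC, and arterial markers to 3413 in young AEC and 458 in young SEC. By a rule of at least 7 of 15 markers of another lineage, 32 cells stand apart. Among them are 9 hematopoietic cells, 8 of which lie in old OPr, and 22 endothelial-sorted cells that carry mesenchymal markers. Old OPr and old mOPr also gained MSC-L marker RNA, from 6607 to 26476 CPM in OPr and from 1245 to 23448 in mOPr, with all 8 markers at 10 CPM or more in each. Pericyte and smooth muscle marker RNA was likewise higher in old, going from 125 to 2593 CPM in OPr and from 199 to 2422 in mOPr, with 7 of 10 markers at 10 CPM or more in each old sort and Acta2 in the lead. Platelet marker RNA stood at 12.3 CPM in young and 1293 in old MSC-L, where 10 of 10 markers reached 10 CPM and Ppbp led. In SEC it stood at 14.9 and 510.2, with 9 of 10 at that level in old. Several member results are therefore also given without cells of another lineage or with platelet markers; no subset without pericyte-marker cells was made.

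Of the 37 members, 34 reached 10 CPM in at least 1 of the 12 groups and 10 did so in all 12. Itgad, Itgae and Itgb6 never did. The number of members at 10 CPM or more ran from 17 in young MSC-L and young SEC to 25 in old OPr. Those of old OPr include Itgam, Itgb2, Itgax, Itgal, Itgb7 and Lamb3, whose RNA there lay mostly in cells of another lineage. The number without those cells was not counted. Itgb1, the beta subunit shared by most matrix-binding integrins, had the narrowest spread of the members, between 169 CPM in young OPr and 501 in young AEC. Per kilobase of exon, a scale that allows genes to be compared, Itgb1 made up 84.5% of all beta subunit RNA in young SEC and 72.7% in young AEC. In MSC-S and mOPr the beta subunits were divided differently. There Itgb5, which pairs with the alpha v subunit to bind vitronectin, held 54.8% of beta subunit RNA per kilobase in young MSC-S and 57.9% in young mOPr, while old MSC-S had 45.4% Itgb5 and 45.2% Itgb1. In young OPr it held 42.1% against 43.3% for Itgb1. Its pooled level was 425 (418 to 432) CPM in young MSC-S against 26.7 (24.6 to 28.9) in young SEC. Itgb5 and Itgav were detected together in 79.7% (67.2 to 89.02) of old MSC-S and in 5.63% of old SEC. Itgav itself ranged from 35.2 CPM in old AEC to 195 in old MSC-L. Itgb8, the other alpha v partner that frees latent TGF-beta, was largely mesenchymal, at 38.9 CPM in young and 49.9 in old MSC-S and 0 in young AEC and young SEC.

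Collagen-binding alpha subunits differed between the sorts. Itga1, whose protein with β1 favors the network collagens of basement membranes, stood at 309.7 CPM in young and 272 in old MSC-L. It was at 410.4 and 466 in SEC but at 7.73 and 11.9 in MSC-S. Together with Itgb1 it was detected in 92.5% (81.8 to 97.9) of young MSC-L and 15.3% of young MSC-S. Among young stromal sorts Itga1 was thus highest in the central marrow. Itga11, the subunit for fibrillar collagen on fibroblasts, stood at 133 CPM or more in every mesenchymal group, highest in young mOPr at 402, and at 0.574 in young AEC. Itga10, best known from cartilage, was highest in young OPr at 122 (118 to 126) CPM, detected in 32 of 44 cells. It followed at 62.5 CPM in young mOPr and stayed at 0.410 in young SEC. Itga10 shares 33.5% of its exon length with another gene, so part of its reads cannot be assigned without strand. Itga2, the platelet and epithelial collagen subunit, never exceeded 37.97 CPM, the level in old SEC.

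Laminin-binding alpha subunits are led by Itga6, whose protein pairs with β1 or, in hemidesmosomes, with β4. Its level was 433 (426 to 440.0) CPM in young AEC, 146 in young SEC, 86.8 in young MSC-S and 1.05 in young MSC-L. Itgb4, the hemidesmosome subunit, was highest in AEC, at 189.5 CPM in young and 271 in old, found in 44 of 84 and 56 of 82 cells. Both subunits were detected together in 40.5% (29.9 to 51.7) of young AEC and 58.5% (47.1 to 69.3) of old AEC. The same cells often carried Lama3, the laminin alpha chain that α6β4 binds, with all 3 genes in 43.9% of old AEC and in 0% of young SEC. RNA for receptor and ligand of this adhesion was thus found in the same arterial cells. Itga3, another receptor subunit for Lama5 and Lama3 laminins, was likewise highest in young AEC at 82.3 CPM. Itga7, the laminin receptor of muscle, was highest in young MSC-S at 39.6 CPM. In AEC it stood at 16.5 and 18.4, with 68.1% and 60.03% of the counts in a single cell.

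Among subunits for fibronectin and related ligands, Itga5, the main fibronectin receptor with β1, stood at 391 CPM in young MSC-S and 336 in old AEC. In young MSC-S 46.98% of its counts lay in a single cell, and the level in the MSC-S clusters was 208. It was the leading alpha subunit per kilobase in old MSC-S, with 46.3% of the family, and in AEC with 36.4% and 42.6% in young and old. In young and old MSC-L, at 49.4 and 52.2 CPM, Itga5 gave way to Itga11, which held 41.9% and 37.04%. Itga9, which binds tenascin and Vcam1, was highest in young SEC at 227 CPM and was found with Itgb1 in 85.7% of those cells. Itga8, the nephronectin receptor subunit of pericytes, reached 32.9 CPM in young OPr, with 72.3% in a single cell, and 32.7 in young MSC-L. Itga4, the Vcam1 receptor subunit of blood cells, stayed at or under 4.15 CPM in every group but old OPr, where it stood at 63.9. Its partner Itgb7 was low throughout, highest in old OPr at 22.9 CPM.

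Laminin alpha chains mark vessel and stroma. Lama5, the widest-spread alpha chain of vascular basement membranes, reached 768 (759 to 777) CPM in young and 935 (925 to 945) in old AEC. Per kilobase it made up 67.1% and 72.8% of alpha chain RNA in AEC, and 79.5% and 78.9% in SEC. Lama4, the chain of vascular and fat basement membranes, was at 210.4 CPM in young AEC and 206 in young MSC-L. It was the largest alpha chain per kilobase in MSC-L, with 46.2% in young and 39.04% in old. Lama5 thus led the alpha chains in both endothelial sorts, and it also led in young mOPr with 33.8%, where 68.9% of its counts lay in a single cell. Lama2, the chain of muscle and mesenchyme, was at 194 CPM in young MSC-S and 1.66 in young AEC. Lama1, the chain of embryonic basement membranes, stood at 66.6 (63.3 to 70.04) CPM in young and 48.6 (45.5 to 51.8) in old MSC-L against 0.376 and 0.0255 in MSC-S, and reached 71.1 in old OPr and 13.5 in old mOPr. It was detected in 12 of 53 young and 12 of 58 old MSC-L, so a minority of that sort carries it. Lama3 was arterial, at 167 and 184 CPM in AEC, and at 5.84 in young SEC.

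**Figure D1:**
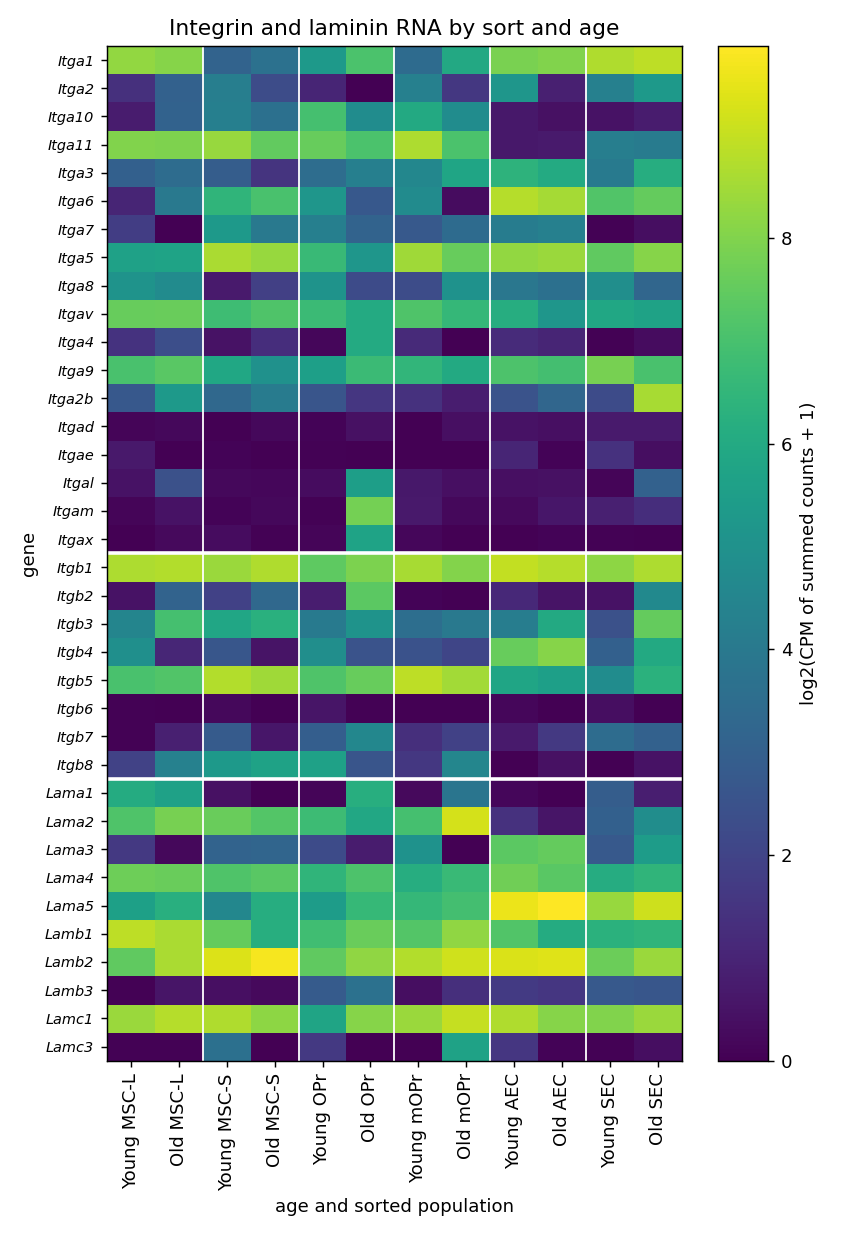
Levels of integrin and laminin genes in each age of each sorted population, as log2 of CPM of the summed counts plus 1.

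Beta and gamma chains were less divided. Lamb2, the beta chain of mature vessels and synapses, held 85.2% of beta chain RNA per kilobase in young MSC-S and 87.4% in young AEC. Lamb1, the earlier beta chain, led in a single group, young MSC-L, with 61.9% at 469 CPM. Lamc1, the gamma chain of most laminins, held at least 81.8% of gamma chain RNA per kilobase in every group, with its lowest level, 52.6 CPM, in young OPr. Lamb3, a beta chain of epithelia, was highest in old OPr at 11.9 CPM, in 2 cells. Lama3 was accompanied by Lamb2 and Lamc1, in 57.3% (45.9 to 68.2) of old AEC. Lama5, Lamb2 and Lamc1 were detected together in 76.2% of young AEC, 54.3% of young SEC and 11.3% of young MSC-L. Lamc3, a gamma chain of brain and skin, reached 10 CPM in young MSC-S (11.4) and old mOPr (51.1). In young MSC-S 99.2% of its counts lay in a single cell.

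MSC-L and MSC-S, the stroma of central marrow and of endosteum, differed in many members. Of 26 that passed the count filter in this comparison, 5 were higher in MSC-L at both ages, where 18.1% of all genes were, and 8 were lower, against 9.76% of all genes. The members higher in MSC-L were Itga1, Itga8, Itga9, Lama1 and Lamb1. Lama1 led with log2 ratios of 5.62 in young and 5.60 in old, followed by Itga1 with 5.15 and 4.41. Lamb1 had 1.32 and 2.46, and Itga8 4.36 and 2.91, with 48.9% and 58.01% of its MSC-L counts in a single cell. Itga9 had 1.16 and 2.35, with 0.67 in the second library range in young. Lamb1 had 0.82 in the first range in young. Lama1 and Itga1 thus had the largest excess in central stroma, while the share of members higher there was close to that of all genes.

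The members lower in MSC-L include Itga5 and Itgb5. Itga5 had log2 ratios of -2.96 in young and -2.60 in old, and Itgb5 -1.71 and -1.28. Laminin receptors followed, with Itga6 at -5.42 and -3.03 and Itga7 at -3.55 and -4.00. Itga6 and Itga7, both laminin-binding, were thus higher in MSC-S. Lamb2 had -1.89 and -1.14. Itgb8 had -3.37 and -1.35, and Lama3 -1.52 and -3.00. The calls of Itgb5, Lama3 and Lamb2 each end in 1 library range, with -0.81 in old in the first, and -0.94 in young and -0.97 in old in the second. Some ligands of these receptors differed as well. Fn1, the fibronectin bound by Itga5, stood at 41.7 CPM in young MSC-L against 19887 in young MSC-S. Vcam1, a ligand of Itga9, stood at 1843 against 49.2, and Tnc, the tenascin it also binds, at 3696 against 281. Among 14 of 16 other integrin ligands that passed the filter, 4 were higher and 5 lower at both ages. Of 13 of 16 basement membrane partners, 2 were higher and 4 lower, with the largest ratios in Col15a1, Ntn4, Col4a5 and Bcam. No adhesion adaptor of 15 that passed differed 2-fold at both ages, and of the 2 hemidesmosome partners that passed, Plec was lower.

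OPr and MSC-S, both from the endosteum, differed in fewer members. Of 28 that passed, 4 were higher in OPr at both ages, against 8.29% of all genes, and 5 were lower, against 6.49%. Itga10 had log2 ratios of 2.70 in young and 1.17 in old, and Itga1 2.20 and 3.37. Itgb4 had 2.25 and 2.01. Lamb3 had 2.44 and 3.42, and -0.27 in old without cells of another lineage. The cartilage-type Itga10 in young OPr goes with chondrogenic RNA in that sort, where Col2a1 reached 23589 CPM and all 10 osteoprogenitor and chondrogenic markers reached 10 CPM. The members lower in OPr were Itga2, Itga5, Itga6, Itgb3 and Lamb2. Itga5 had -1.92 and -3.15, with 46.98% of the young MSC-S counts in a single cell, Itga6 -1.28 and -4.30, and Itga2 -3.20 and -2.29. Lamb2 had -1.89 and -1.53, and Itgb3 -1.79 and -1.18. Several of these calls end in a subset of old cells. Itgb3 had -0.77 in old without cells of another lineage and -0.43 in the second library range. In that range Itga2 had -0.10 and Itga10 0.55 in old, and Itgb4 had 0.10 in old in the first. For Itga1, 10 of 29 old OPr lay in the MSC-L clusters. Among all old cells of the OPr and MSC-S clusters from any sort it stood at 24.2 and 12.4 CPM, under 2-fold apart. There 72.6% and 76.6% of its counts lay in 1 cell. In young cells of those clusters it stood at 25.95 and 6.92 CPM. Among partners, 1 of 13 basement membrane partners was higher (Bcam) and 3 lower, 2 of 16 adaptors were lower (Fermt2, Lims2), 3 of 14 other ligands were higher and 2 lower, and neither hemidesmosome partner differed.

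AEC and SEC, the arterial and sinusoidal endothelium, differed in RNA of Itgb4 and Lama3, genes of the α6β4 adhesion. Of 24 members that passed, 5 were higher in AEC at both ages, against 9.23% of all genes, and 4 were lower, against 8.62%. Itgb4 had log2 ratios of 4.56 in young and 2.10 in old, and 3.46 and 1.81 within the third library range. Lama3 had 4.62 and 2.09, and 4.19 and 1.86 within that range. Itga6 had 1.57 and 1.01, 1.53 and 1.52 within it, and 0.86 in old without cells of another lineage. Itgb4 and Lama3 were thus 2-fold higher in AEC at both ages also within that range, while for Itga6 the call in old ends without those cells. Lamb2 had 1.67 and 1.04, or 1.40 and 1.24 in that range. Itga7 had 4.07 and 3.91, resting on 5 young and 3 old AEC that detect it. It stood at 320 CPM in cluster E2. Among all cells of the AEC clusters it stood at 4.84 CPM in young, with 86.5% in 1 cell, and 0.131 in old. Old SEC had 0.290. Pericyte and smooth muscle marker RNA stood at 2489 and 2166 CPM in young and old AEC, and at 2586 and 2787 in SEC. Of 6 hemidesmosome partners of the adhesion, 2 passed the filter. Plec, the hemidesmosome linker to keratin and vimentin filaments, stood at 1356 CPM in young AEC against 315 in young SEC, and Dst, its relative, at 48.4 against 18.1. Bcam, a receptor for Lama5 outside the integrin family, stood at 968 against 49.2. Of hemidesmosome partners, 2 of 2 that passed were higher in AEC at both ages. Of 14 basement membrane partners 3 were higher and 1 lower, of 18 adaptors 2 and 2, and of 14 other ligands 3 and 4, with the largest ratios in Fn1 and Vcam1. Vcam1 was sinusoidal, at 235 CPM in young AEC against 3194 in young SEC.

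Members lower in AEC than SEC were Itga11, Itgb7, Lama2 and Lamb3. Itga11 had log2 ratios of -3.56 in young and -3.36 in old, which became 0.23 and -0.35 without cells of another lineage. Lama2 had -1.60 and -4.30, and 0.18 and 0.48 without them. These mesenchymal-type members of the SEC sort lay in cells that carry mesenchymal markers, whose summed level fell from 1158 to 507 CPM in young SEC when those cells were left out. Lamb3 had -1.10 and -1.09, and 0.43 and 0.57 within the third library range. Itgb7 had -2.79 and -1.42, and 0.36 in old without cells of another lineage. Lama5 had 1.26 and 0.77, short of 2-fold in old.

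**Figure D2:**
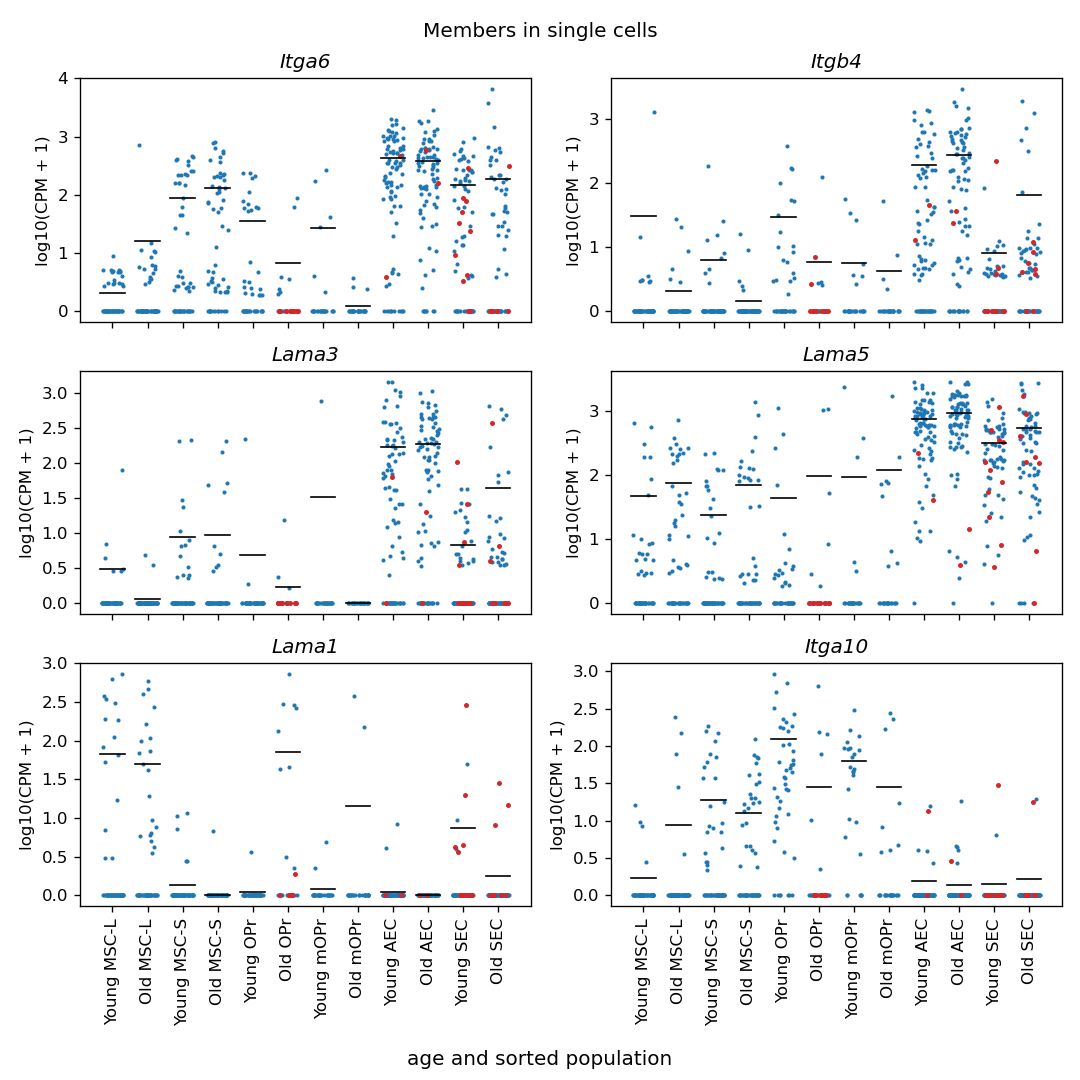
Levels of 6 members in single cells of each age and sort, as log10 of CPM plus 1. Red points are cells of another lineage and black bars the pooled level.

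In MSC-L, 8 of 24 members that passed were higher in old, against 13.9% of all genes, and 1 was lower, against 11.5%. Lamb2 went from 177 (171 to 182) CPM in young to 391 (382 to 399.9) in old, a log2 ratio of 1.14, with 0.74 and 1.33 in the first and second library ranges. Without cells that carry platelet markers it was 0.99. With it the beta chains changed places: the share of Lamb1 per kilobase went from 61.9% to 38.3% and that of Lamb2 from 38.1% to 61.7%. Lama2 stood at 141 and 226 CPM and was found in 21 young and 44 old cells. Cells with Lama2, Lamb1 and Lamc1 together made up 35.8% (23.1 to 50.2) of young and 63.8% (50.1 to 76.01) of old MSC-L. Cells with Lama4, Lamb1 and Lamc1 went the other way, from 79.2% to 55.2%. Those with Lama4, Lamb2 and Lamc1 went from 73.6% to 56.9%. Lama1 and Itga1 were under 2-fold apart, with log2 ratios of -0.45 and -0.19. In the library ranges Lama1 had 0.49 and -0.80, and Itga1 -0.70 and 0.05. Itgb8 rose from 2.85 to 19.03 CPM, in 1 young and 7 old cells with 66.3% of the old counts in a single cell. Its ratios were 3.43 and 2.20 in the library ranges. The make-up of the sort differed too, as cluster M2 took in 12 young and 23 old cells. Itgb8 stood at 29.5 CPM in M2 and 0.987 in M1, and Lama2 at 357 and 126. Itga10 (log2 ratio 2.34) and Itga2 (1.71) also rose, both under 10 CPM in either age.

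The other calls of MSC-L rest on few cells. Itga2b, the platelet fibrinogen receptor subunit, went from 5.61 to 39.9 CPM, a log2 ratio of 2.63. The 10 old cells with at least 3 platelet markers hold 90.4% of those counts, and without them the ratio was -0.30. Itgb3, its partner, went from 21.4 to 123 CPM (ratio 2.47), and without those cells the ratio was -0.05. In the first and second library ranges Itga2b had 5.37 and -0.19, and Itgb3 3.43 and -0.39. Itga6 had 2.97, with 91.8% of its old counts in a single cell and 0.19 without the top cells. Itgb2, a leukocyte subunit, had 2.67, with 90.9% of its old counts in a single cell. Itgb4 had -3.88, with 98.1% of its young counts in a single cell, -0.01 without the top cells and 1.38 in the first library range. Most RNA of the platelet integrin in old MSC-L thus lay in cells with platelet RNA. Hematopoietic marker RNA went from 58.5 to 309.6 CPM, with 6 of 15 markers at 10 CPM or more in old. Fermt3, the blood-cell kindlin, moved with it from 1.80 to 85.9 CPM. Of 16 adaptors 3 were higher and 2 lower, with the largest ratios in Lims2, Fermt3, Parvb and Pxn. Of 11 basement membrane partners 1 was higher (Ntn4), of 13 other ligands 3 were higher and 2 lower, led by Npnt and Thbs1, and of 2 hemidesmosome partners none differed.

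In MSC-S, 3 of 28 members that passed were higher in old, against 8.65% of all genes, and 7 were lower, against 11.1%. Lama5 rose from 22.8 (21.2 to 24.4) to 70.2 (67.6 to 72.9) CPM, a log2 ratio of 1.58, with 3.32 and 0.97 in the library ranges. Lamb1 fell from 187 (182 to 191) to 71.3 (68.7 to 74.01) CPM, a ratio of -1.38, with -1.64 and -1.24. Lamb1 was detected in 25 young and 24 old of 59 cells each. The make-up of the sort differed too: cluster M16, where Lama5 stands at 151 CPM, took in 14 young and 21 old cells, and M9 0 young and 10 old. Among all cells of the MSC-S clusters from any sort the ratios were 1.09 for Lama5, -0.90 for Lamb1 and -0.71 for Itga7, so the calls of Lamb1 and Itga7 end there. Itga7 fell from 39.6 to 14.96 CPM (ratio -1.35; -3.18 and -1.25 in the ranges), and Itga2 from 17.5 to 3.91 (ratio -1.92; -0.71 and -3.72), so the call of Itga2 ends in the first range. Itga6 stood at 86.8 and 130.2 CPM. The other calls concern members under 10 CPM or single cells. Itga3 had -1.41, Itgb7 -2.26 and Itgb4 -2.11, each under 10 CPM at both ages. Lamc3 had -3.60 and -0.12 without the top cells. Itgb2 had 1.43, with 97.8% of its old counts in a single cell, and Itga8 1.15, with 81.6%. Of 14 other ligands 3 were higher and 3 lower, with Spp1, the osteopontin bound by alpha v and α9 integrins, at 590.2 CPM in young and 16.97 in old. Of 14 basement membrane partners 1 was higher and 3 lower, of 17 adaptors 2 were higher, and of 2 hemidesmosome partners none differed.

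OPr had the most calls between ages, and the cells its gate held changed too. Of 32 members that passed, 12 were higher in old, against 25.6% of all genes, and 9 were lower, against 19.6%. Without cells of another lineage the counts were 13 and 10, given without the share of all genes in that subset. The clusters of the authors that hold most MSC-L took in 3 of 44 young and 10 of 29 old OPr, and chondrogenic and osteoprogenitor marker RNA fell from 32132 to 5285 CPM. Lama1 rose from 0.102 CPM, in no young cell, to 71.1 in 7 old cells, a log2 ratio of 6.03, with 5.49 and 6.38 in the library ranges. Among the 10 old cells of the OPr clusters it stood at 3.79 CPM (ratio 2.26), and among all old cells of those clusters from any sort 84.6% of its counts lay in 1 cell. Lamc1 rose from 52.6 (50.05 to 55.3) to 271 (264 to 278) CPM, a ratio of 2.34, with 2.59 and 2.09 in the ranges and 1.49 in the OPr clusters. Itga1 rose from 39.04 to 132 CPM (ratio 1.73), with 1.30 in the OPr clusters. Among all cells of those clusters from any sort, other lineages included, Lama1 had 1.07, Lamc1 0.56 and Itga1 -0.10. The calls of Lamc1 and Itga1 end there, with 51.7% of the young Lamc1 and 72.6% of the old Itga1 counts in 1 cell. Itga9 had 1.13 and -1.11 in the OPr clusters, and Lama5 had 1.14, with 56.98% of its old counts in a single cell and -0.01 in the second library range. Itgb3 had 1.03, with 54.9% in a single cell and -2.68 in the first library range.

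Members lower in old OPr include the cartilage-type collagen receptor. Itga10 fell from 122 to 27.1 (24.97 to 29.4) CPM, a log2 ratio of -2.13, with -1.83 and -2.42 in the library ranges. It was found in 32 young and 4 old cells, and with Itgb1 in 68.2% and 10.3%. In the OPr clusters, which hold 10 old cells once other lineages are left out, the ratio was -0.55. It was -1.52 among all cells of those clusters from any sort, and -1.72 in the sort without cells of another lineage. Itga5 fell from 102 to 35.1 CPM (ratio -1.52; 0.12 in the OPr clusters), and Itga6 from 35.05 to 5.66 (ratio -2.44; -0.79). Itgb4 fell from 28.3 to 4.77 CPM (ratio -2.34; -0.20), in 8 young and 1 old cells. Itga5, Itga6 and Itgb4 were thus lower in the old sort, while none was 2-fold apart in those 10 old cells. Among all cells of the OPr clusters from any sort, other lineages included, the ratios were -1.75 for Itga5, -0.41 for Itga6 and -2.19 for Itgb4. Only Itga6 is thus under 2-fold in both sets. In the wider set 64.7% of the young Itga5 and 62.2% of the young Itgb4 counts lay in 1 cell. Itgb8 had -3.07, with 89.8% of its young counts in a single cell, Itga8 -2.82, with 72.3% and a ratio of 0.58 in the second library range, and Itga7 -1.10, with 88.5% and 0.39 without the top cells. Lama3 had -1.50 and Itga2b -1.06, both under 10 CPM at either age. Of 13 basement membrane partners 5 were higher and 5 lower. Hspg2, the perlecan that binds laminin networks, fell from 1688 to 158 CPM, and Col15a1 from 90.04 to 0.982. Of 18 adaptors 7 were higher and 1 lower, led by Parvg, of 14 other ligands 7 and 4, led by Vtn, and of 3 hemidesmosome partners 2 were lower (Col17a1 and Plec).

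Leukocyte integrins appeared in old OPr together with blood cell markers, although the gate was negative for CD45 and Ter119. Itgam, the alpha subunit of complement receptor 3, stood at 0.0341 CPM in young and 222 (215 to 228) in old OPr, a log2 ratio of 7.75. The 8 hematopoietic cells hold 99.5% of those counts, and without cells of another lineage the ratio was 1.20. Its partner Itgb2 stood at 168 CPM in old OPr (ratio 6.59), with 99.9% in those cells and -0.56 without them. Itgax stood at 51.8 CPM (ratio 5.58; -0.05 without them) and Itgal at 44.7 (ratio 5.21; -0.31). Both are alpha partners of Itgb2. Hematopoietic marker RNA moved alike, from 36.3 to 6368 CPM, led by Plek with all 15 markers at 10 CPM or more, and to 40.9 without those cells. In young OPr Cd52 and Csf3r were at 0. RNA of Itgam, Itgb2, Itgax and Itgal in old OPr thus lay almost wholly in the 8 hematopoietic cells. Itgb7 likewise had 1.61 and -1.96 without them. Itga4 had 5.84 and 5.15 without them, with 54.1% of its old counts in hematopoietic cells. Of 3 old cells that detect it 2 are hematopoietic, so the ratio without them rests on 1 cell. Itgam shares 68.7% of its exon length with another gene, which limits how its reads can be assigned. Itgal, Itgam, Itgax and Itgad lie on chromosome 7, the last 3 side by side, and Itgad stayed under 10 CPM where its neighbors were high.

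The promoters of Itgam and Itgax are shown because they differ in a myeloid motif. Both genes were detected in hematopoietic cells of old OPr, Itgam in all 8 and Itgax in 3. The letters looked for were GAGGAA, or TTCCTC on the other strand, the core bound by the blood factor PU.1. The Itgam promoter holds 3 matches and the Itgax promoter none. In all, 9289 of 32851 promoters (28.3%) hold at least 1, as do 14 of the 26 promoters that belong to 23 members. A match is a description, not a site or a cause. The sequences are those of the RefSeq genome, build GRCm38.p6, at chr7:128062390-128062689 for Itgam and chr7:128129300-128129599 for Itgax, both on the plus strand, with the motif in capitals.
Itgam promoter: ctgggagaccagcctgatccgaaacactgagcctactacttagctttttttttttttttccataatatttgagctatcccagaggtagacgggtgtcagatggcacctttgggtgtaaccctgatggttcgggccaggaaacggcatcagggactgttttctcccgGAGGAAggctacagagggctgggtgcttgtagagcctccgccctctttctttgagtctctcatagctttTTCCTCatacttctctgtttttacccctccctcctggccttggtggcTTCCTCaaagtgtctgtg
Itgax promoter: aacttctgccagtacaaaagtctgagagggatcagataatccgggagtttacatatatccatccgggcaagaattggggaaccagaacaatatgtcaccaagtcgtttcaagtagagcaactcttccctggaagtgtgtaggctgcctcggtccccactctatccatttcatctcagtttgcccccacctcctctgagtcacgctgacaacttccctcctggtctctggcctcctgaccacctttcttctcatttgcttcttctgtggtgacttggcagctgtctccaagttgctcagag

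In mOPr, 6 of 20 members that passed were higher in old, against 24.7% of all genes, and 3 were lower, against 19.8%. With 26 cells at each age, of which 2 young and 14 old fell in the MSC-L clusters, this is the smallest sort. Of the other cells, 16 young fell in the MSC-S clusters and 8 young and 12 old in the OPr clusters, so ratios in these clusters together set different clusters against each other. There Lama2 had 2.56, Itga11 -2.58 and Itga1 -1.13. Lama2 rose from 123 (117 to 129) to 597 (584 to 611) CPM, a log2 ratio of 2.27, with 1.92 and 7.39 in the library ranges. It was found in 7 young and 17 old cells, and its share of alpha chain RNA per kilobase went from 30.7% to 64.03%. Itga11 fell from 402 to 133 CPM (ratio -1.59; -2.66 and -0.97 in the ranges), and with Itgb1 it was detected in 84.6% and 46.2% of cells. Itga10 fell from 62.5 to 27.1 CPM (ratio -1.18), as it did in OPr. Itga11 and Itga10 were thus lower in old mOPr, while the share of members lower there was under that of all genes. Itga1 rose from 10.01 to 61.5 CPM (ratio 2.51). Lamb1 had 1.01, with 90.9% of its young counts in a single cell and 4 young and 15 old cells detecting it. Itga6 fell from 25.98 to 0.240 CPM (ratio -4.44).

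Further calls in mOPr rest on 1 to 5 cells. Itgb8 had 2.90, in 2 young and 5 old cells with 43.96% of the old counts in a single cell, and Itga3 1.24, with -0.67 in the first library range. Itga8 had 2.72, with 99.7% of its old counts in a single cell, -0.97 without the top cells and -3.06 in the first library range. Lamc3 was short of the filter, at 0 in young and 51.1 CPM in old, at least 248-fold over the floor of 3 counts, with 55.96% in a single cell. Lama3 was the reverse, 31.3 CPM in young and 0 in old, at least 130.4-fold, with 100% in a single cell. None of these describes the sort as a whole. Ligands changed too: Fn1 fell from 7212 to 347 CPM, while Vtn rose from 1.30 to 82.8 and Vcam1 from 54.4 to 784. Of 14 other ligands 4 were higher and 6 lower, of 13 basement membrane partners 5 and 1, led by Bcam, of 14 adaptors 1 and 2, led by Lims2, and of 2 hemidesmosome partners none. The median of all genes was 0.14 in OPr and 0.11 in mOPr, and -0.02 and -0.01 with size factors. Ratios of these sorts thus depend slightly on the scaling.

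In AEC, 2 of 22 members that passed were higher in old, against 9.33% of all genes, and 2 were lower, against 11.7%. Within the 3 library ranges 2, 3 and 7 were higher and 7, 4 and 1 lower. These counts come without the share of all genes in each range, so no result about the members is read from them. Itga2 fell from 34.9 (32.98 to 36.9) to 0.803 (0.534 to 1.16) CPM, a log2 ratio of -4.32, with -4.05, -4.55 and -3.51 in the 3 library ranges. It was found in 15 young and 1 old cells. Itgb3, the vitronectin receptor subunit of activated vessels, rose from 17.2 (15.8 to 18.6) to 62.2 (59.6 to 64.9) CPM, a ratio of 1.80, with 2.51, 1.70 and 1.24 in the ranges. Lower Itga2, a collagen receptor, and higher Itgb3, an alpha v partner, thus held in every library range. Platelet marker RNA stood at 14.1 CPM in young and 13.7 in old AEC, and its relation to Itgb3 was not tested. Sinusoidal marker RNA went from 3964 to 2197 CPM, and cluster E6 took in 8 young and 2 old AEC. In E6 Itga2 stood at 75.6 CPM and Lamb1 at 249.6. Lamb1 fell from 146 to 66.98 CPM (ratio -1.12), with -4.30, -0.16 and -0.64 in the ranges. Its detection went from 35 to 10 cells, and cells with Lama5, Lamb1 and Lamc1 together from 38.1% (27.7 to 49.3) to 9.76% (4.31 to 18.3). Cells with Lamb2 in its place made up 76.2% and 74.4%, so less Lamb1 was found beside level Lamb2, most of all in the first library range. Genes of the α6β4 adhesion were under 2-fold apart, with 0.51 for Itgb4, -0.21 for Itga6 and 0.14 for Lama3. Cells with Itga6 and Itgb4 together made up 40.5% (29.9 to 51.7) of young and 58.5% (47.1 to 69.3) of old AEC. Lama5 had 0.28. Type IV collagen, the other network of the basement membrane, was lower: Col4a1 went from 1209 to 586 CPM and Col4a2 from 1408 to 678. Of 15 basement membrane partners 2 were higher and 4 lower, with the largest ratios in Ntn4, Col4a5 and Col4a3, of 18 adaptors 2 were lower, of 15 other ligands 1 was higher and 1 lower (Postn, 3.65, or -1.84 without cells of another lineage, and Vcam1), and of 3 hemidesmosome partners 1 was higher (Col17a1).

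In SEC, 9 of 26 members that passed were higher in old, against 13.1% of all genes, and 2 were lower, against 7.56%. Itgb4 rose from 7.07 to 62.3 (58.99 to 65.8) CPM, a log2 ratio of 2.97, in 3 young and 12 old cells. Lama3 rose from 5.84 (4.87 to 6.94) to 42.4 (39.6 to 45.3) CPM, a ratio of 2.67. Itga6, Itgb4 and Lama3 were found together in 0 young and 6 old SEC. In the cluster that holds most SEC, the ratios were -0.13 for Itgb4 and -0.78 for Lama3. That cluster took in 59 of 70 young and 44 of 71 old SEC. The arterial clusters took in 8 old SEC, and cluster E6 took in 2 young and 12 old SEC. In E6 Itga3 stood at 96.5 CPM and Lama3 at 42.9. Arterial marker RNA of the sort rose from 458 to 1433 CPM, with 4 and 7 of 8 markers at 10 CPM or more and Ly6a in the lead, and sinusoidal marker RNA went from 23671 to 18439. Since Itgb4 and Lama3 are guide genes, their ratios in the cluster that holds most SEC are in part set by how it was made. Itgb5 rose from 26.7 to 77.4 CPM (ratio 1.502; -1.22 in that cluster). Itga3 rose from 15.7 (14.1 to 17.4) to 69.2 (65.7 to 72.9) CPM, a ratio of 2.07, with 1.59 in the main cluster and 16 young and 25 old cells. Itga8 fell from 28.2 to 8.49 CPM, a ratio of -1.62, with -1.86 in that cluster, where 79.8% of its old counts lay in 1 cell. Itga3 and Itga8, the latter a guide gene, thus kept direction and a 2-fold size within the main sinusoidal cluster.

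**Figure D3:**
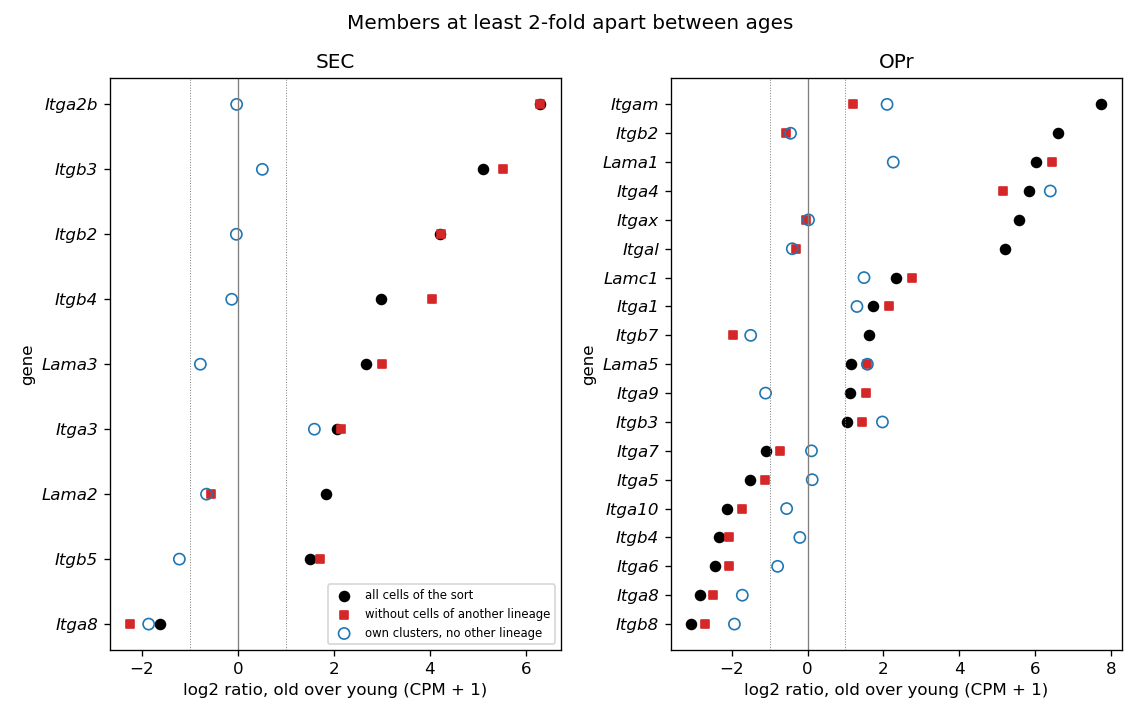
Old over young log2 ratios in SEC and OPr for members at least 2-fold apart and at 10 CPM or more in an age. Black, all cells of the sort; red, without cells of another lineage; open blue, cells in the clusters of the sort and of no other lineage.

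Platelet and blood subunits rose in old SEC as they did in old MSC-L. Itga2b went from 3.79 to 378 (369 to 386) CPM, a log2 ratio of 6.31, and became the largest alpha subunit per kilobase with 32.3%. The 7 old cells with platelet markers hold 90.2% of those counts, and without them the ratio was 3.08. Itgb3 went from 4.47 to 186 CPM (ratio 5.10), with 75.97% in a single cell and 1.76 without the platelet-marker cells. In the main sinusoidal cluster the ratios were -0.03 for Itga2b and 0.51 for Itgb3. Itgb2 had 4.21 and Itgal 2.93, with 89.6% and 90.1% of their old counts in the platelet-marker cells. Most RNA of these subunits thus lay in cells that carry platelet RNA as well. Hematopoietic marker RNA went from 191 to 662 CPM, with 9 of 15 markers at 10 CPM or more in old. Lama2 had 1.83, and -0.56 without cells of another lineage, and Lama1 fell with -2.08, with 80.99% of its young counts in a single cell. Of 14 other ligands 3 were higher and 1 lower: Fn1 went from 1.14 to 64.1 CPM, Thbs1 from 25.8 to 275, and Madcam1 from 0.912 to 38.9. Of 13 basement membrane partners 6 were higher, led by Col18a1, of 18 adaptors 5, led by Fermt3, and of 3 hemidesmosome partners 1 (Col17a1).

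Across the clusters of the authors the same members recur; since all genes entered that clustering, and Itga1, Itga6, Itgb4, Lama3, Itga7 and Itga8 were among its guide genes, these levels are a description. Itgb4 stood at 331 CPM in E3, 238 in E4 and 3.37 in E7, the main SEC cluster. Lama3 stood at 266, 166 and 2.73 CPM in those clusters. Itga6 was highest in E5 at 877 CPM, and reached 289 in M16, the mesenchymal cluster where it is found in 97.2% of cells. RNA of Itga6 was thus found in a stromal cluster as well as in endothelium. Since it was a guide gene, its level in M16 is in part set by how that cluster was made. Itgb8 was highest in the same M16, at 112 CPM. Itga7, Itga8 and Lama5 were all highest in E2, a cluster of 8 cells, at 320.0, 172 and 1402 CPM. Itga10 was highest in M4 at 225 CPM. Lama1 was highest in M2 at 76.01 CPM and M1 at 64.2, followed by 27.9 in E1, the cluster with 14 of the 22 endothelial-sorted cells that carry mesenchymal markers. Itgb3 reached 253 CPM in M7, with no more than 27.7% of its counts in a single cell.

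Each age of a sort is 1 sample, so none of these differences comes with an error between mice. Reads were counted without molecular identifiers, and a lower share of cells with a gene and less RNA per cell cannot be told apart in a summed level. SEC share no library range with the mesenchymal sorts, so where their levels stand side by side a difference between sorts and between library ranges cannot be told apart. Levels of members seen in few cells, such as Itga8, Lamc3 and Itga4, can follow single cells. RNA of an integrin subunit does not show that its protein is paired or at the cell surface.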

How the data were processed

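The authors deposited read counts per gene and cell (HTSeq, version not given, without regard to strand) from reads aligned with GSNAP version 2015-09-29 to build GRCm38.p4, made from plate-based libraries of single cells sorted from young and old mice. Mitochondrial genes were left out, and the nuclear counts of all cells of an age and population were summed. Values were computed in Python 3.11.15 with pandas 2.3.3 and numpy 2.4.6, intervals with scipy 1.17.1, and figures with matplotlib 3.10.9. Levels carry exact Poisson intervals and shares of cells exact binomial intervals at 95%. A comparison took genes with at least 100 counts and at least 5 cells over both groups. Percentages of all genes beside member counts use the same filter and the same 2-fold limit. Cells of another lineage carry at least 7 of 15 of its markers at 10 CPM, and platelet-marker cells at least 3 of 10. The method was tested on simulated data. Alternatives were other folds and filters, library ranges, thinning to 100000 counts, size factors, means of cells, leaving out the top cell of each age, and cell subsets. All members were counted; members described with values are among those at 10 CPM or more in at least 1 of 12 groups, the others enter by counts, and up to 4 genes are named from each partner list. Members and lists were chosen with earlier results of these data known.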

Additional observations from a re-analysis of the deposited data

Results flagged for a closer look

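In all, 12 members passed 2-fold between ages in opposite directions in different sorts. This number comes without the share of all genes that did so, so it is no result about the members. The 4 given here reached 10 CPM at an age in both sorts and kept their sign in them under every setting planned for the sorted cells; each value is the gap between the 2 log2 old over young ratios, and none of these differences was tested. Itga6 was higher in old MSC-L (2.97) and lower in old mOPr (-4.44), a gap of 7.41. Among all cells of the MSC-L clusters the ratio was -0.10. Most of the old MSC-L counts lie in 1 cell (91.8%). Itga6 with Itgb1 was detected in 4 of 26 young and 0 of 26 old mOPr. Itgb4 was higher in old SEC (2.97) and lower in old OPr (-2.34), a gap of 5.32; it was -0.11 among all cells of the SEC cluster, and within the clusters of each sort the ratios were -0.13 and -0.20. Itgb8 was higher in old mOPr (2.90) and lower in old OPr (-3.07), a gap of 5.97, with 89.8% of the young OPr counts in 1 cell. Lamb1 was higher in old mOPr (1.01) and lower in old MSC-S (-1.38), a gap of 2.39, with 90.9% of the young mOPr counts in 1 cell.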

How the results depend on the processing

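No paired analysis was possible because no mouse is named for any cell; the values come from no test, and numbers of cells are not replicates. Of 102 values of the 9 member counts under other settings, 84 stayed within 1.5 times of the first and 18 moved. Of 537 age ratios under other settings, 274 stayed within the counting interval, 224 moved and 39 turned their sign; of 158 population ratios 71 stayed, 82 moved and 5 turned. These ratios are those of called members at 10 CPM or more in a compared group. Of 369 levels 143 stayed and 226 moved, and of 123 shares of cells 120 and 3. Where a value turned or moved, the cause was not tested, except that a 4-fold limit and smaller subsets of cells change counts by construction. Subsets of own clusters and without platelet-marker cells were chosen after seeing the data.

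Counts of members at least 2-fold apart between ages (higher and lower in old) moved as follows, given without the share of all genes. In MSC-L they were 5 (5 and 0) in own clusters and 4 (3 and 1) without platelet-marker cells. In MSC-S they were 5 (1 and 4) without the top cell of each age and 3 (0 and 3) at 4-fold. In OPr they were 12 (7 and 5) at 4-fold. In mOPr they were 15 (9 and 6) with no filter and 5 (4 and 1) at 4-fold. In AEC they were 9 (2 and 7), 7 (3 and 4) and 8 (7 and 1) in library ranges 1, 2 and 3, 1 (0 and 1) at 4-fold and 8 (4 and 4) in the AEC-like clusters. In SEC they were 6 (3 and 3) in own clusters and 5 (2 and 3) among all SEC-like cells. At both ages, MSC-L and MSC-S had 7 (3 and 4) at 4-fold. OPr and MSC-S had 15 (3 and 12) in the first library range and 4 (3 and 1) at 4-fold, and AEC and SEC 4 (3 and 1) at 4-fold.

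Log2 ratios of old over young that turned their sign are given by setting, for called members at 10 CPM or more at an age. In the first library range: Itgb4 in MSC-L 1.38, Itgb3 in OPr -2.68, and in mOPr Itga3 -0.67 and Itga8 -3.06. In the second: Itga2b -0.19 and Itgb3 -0.39 in MSC-L, Itga8 0.58 and Lama5 -0.015 in OPr. Without the top cell of each age: Itga7 in OPr 0.39 and Itga8 in mOPr -0.97. Without cells of another lineage: Itgal -0.31, Itgax -0.053, Itgb2 -0.56 and Itgb7 -1.96 in OPr, Lama2 -0.56 in SEC. In all cells of the clusters that resemble the sort: Itga6 -0.10 for MSC-L; Itga1 -0.10 and Itga9 -0.78 for OPr; Itgb4 -0.11, Itgb5 -1.16, Lama2 -0.62 and Lama3 -0.72 for SEC. In own clusters: Itgb3 -0.0043 and Itgb4 0.40 in MSC-L; Itga5 0.12, Itga7 0.10, Itga9 -1.11, Itgal -0.40, Itgb2 -0.45 and Itgb7 -1.50 in OPr; Itga1 -1.13 in mOPr; Itga2b -0.026, Itgb2 -0.033, Itgb4 -0.13, Itgb5 -1.22, Lama2 -0.65 and Lama3 -0.78 in SEC. Without platelet-marker cells: Itga2b -0.30 and Itgb3 -0.050 in MSC-L. Ratios between sorts turned without cells of another lineage: AEC over SEC in young for Itga11 0.23 and Lama2 0.18, in old for Lama2 0.48 and Itgb7 0.36, and OPr over MSC-S in old for Lamb3 -0.27.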
